A study of Mus musculus with 20 samples.

Results

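The non-clustered delta protocadherins are single-gene members of the cadherin superfamily, and 8 of them were followed here through neural differentiation of TKO and WT mouse embryonic stem cells. The members were the genes Pcdh1, Pcdh7, Pcdh8, Pcdh9, Pcdh10, Pcdh17, Pcdh18 and Pcdh19, chosen by name, among 35975 genes with counts summed over their transcripts. All 8 were among the 18555 genes that passed the filter on low counts and were tested.

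Delta protocadherins are transmembrane proteins whose extracellular cadherin repeats bind the same protein on a neighbouring cell, and whose tails carry conserved short motifs. By number of repeats and tail motifs they divide into a delta1 group, here Pcdh1, Pcdh7 and Pcdh9, and a delta2 group, here Pcdh8, Pcdh10, Pcdh17, Pcdh18 and Pcdh19. Several delta2 tails recruit the WAVE regulatory complex, which starts branched actin networks. In the nervous system the family is known for patchy expression across brain regions, axon growth and sorting, and synapse formation, and loss of PCDH19 function in humans causes an epilepsy.

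The cells were TKO and WT cells of the mouse line ES-E14TG2a. The TKO genotype is not spelled out in the labels, and neither are the number of clones and the way it was made. TKO and WT stem cells grown without feeders in serum and LIF were sampled at D0, and cells of each genotype moved to laminin and N2B27 medium, which carries a culture into the neural lineage, at D2, D4, D6 and D8. Each of these 5 TKO and 5 WT groups held 2 biological replicate libraries of stranded mRNA sequencing, 20 in all.

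The libraries held 26015282 to 38074768 estimated counts over all transcripts. Levels are CPM, counts per 1e+06 after scaling between libraries, given for both libraries of a group, and a count of 0 in both libraries allows up to 3 counts over the group. CPM compares 1 gene between libraries and TPM, which is per length, compares genes. The labels do not name the genes altered in TKO, and of the DNA methyltransferase genes, which were looked at for this reason, Dnmt1 averaged 78.7 CPM in TKO and 441 CPM in WT at D0, Dnmt3a 23.3 CPM in TKO and 98.9 CPM in WT, and Dnmt3b 27.2 CPM in TKO and 83.2 CPM in WT. All 3 were also lower in TKO at the later days, except Dnmt3b at D8, with 88.2 CPM in TKO and 46.6 CPM in WT. The TKO D8 libraries stood apart on the first principal component of the 500 most variable genes, at 10.6 and 11.5, below both TKO D6 libraries at 35.5 and 38.8 and both WT D8 libraries at 53.1 and 55.1. Pou5f1, which encodes the pluripotency factor Oct4, averaged 526 ± 37.5 CPM in TKO D8 and 12.5 ± 7.13 CPM in WT D8 libraries (SD, n = 2 each). No label ties the replicates of a group to separate clones or cultures beyond the word biological, so p-values measure the spread between these libraries.

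The promoters of the 4 members with the lowest fold change, TKO over WT, at D8 are shown first. They are RefSeq windows of the mouse build GRCm38.p6, from 250 bases before to 50 bases after a transcription start, written 5′ to 3′ on the gene's strand, with each CpG, the letters CG, in capitals. The Pcdh17 window lies at chr14:84443313-84443612 on the plus strand, the Pcdh9 window at chr14:93890630-93890929 on the minus strand, the Pcdh10 window at chr3:45378148-45378447 on the plus strand and the Pcdh7 window at chr5:57717831-57718130 on the plus strand.
Pcdh17: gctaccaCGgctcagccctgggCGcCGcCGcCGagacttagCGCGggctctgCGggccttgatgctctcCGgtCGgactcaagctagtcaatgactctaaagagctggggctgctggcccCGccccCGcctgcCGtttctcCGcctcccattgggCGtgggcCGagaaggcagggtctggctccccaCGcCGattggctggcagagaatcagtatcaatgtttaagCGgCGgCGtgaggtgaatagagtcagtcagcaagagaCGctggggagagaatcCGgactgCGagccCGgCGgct
Pcdh9: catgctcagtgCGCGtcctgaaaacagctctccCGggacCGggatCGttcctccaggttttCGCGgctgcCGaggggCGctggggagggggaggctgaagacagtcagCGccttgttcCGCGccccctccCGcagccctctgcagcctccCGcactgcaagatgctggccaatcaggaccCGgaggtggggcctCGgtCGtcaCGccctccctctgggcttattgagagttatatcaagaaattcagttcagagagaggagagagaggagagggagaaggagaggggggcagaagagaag
Pcdh10: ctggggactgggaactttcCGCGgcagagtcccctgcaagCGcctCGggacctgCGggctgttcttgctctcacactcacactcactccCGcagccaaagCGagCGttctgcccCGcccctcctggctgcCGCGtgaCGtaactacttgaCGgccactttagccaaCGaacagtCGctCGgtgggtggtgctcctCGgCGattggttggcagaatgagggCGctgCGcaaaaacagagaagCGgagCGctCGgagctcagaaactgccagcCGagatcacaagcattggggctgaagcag
Pcdh7: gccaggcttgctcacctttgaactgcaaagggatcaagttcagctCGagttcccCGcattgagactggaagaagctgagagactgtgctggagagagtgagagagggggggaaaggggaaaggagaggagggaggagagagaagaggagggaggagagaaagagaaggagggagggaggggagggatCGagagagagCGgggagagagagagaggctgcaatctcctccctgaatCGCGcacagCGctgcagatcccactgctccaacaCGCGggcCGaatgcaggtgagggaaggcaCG
The Pcdh17 window held 26 CpG, the Pcdh10 window 24, this Pcdh9 window 18 and the Pcdh7 window 11. A second Pcdh9 window, with an overlapping start, held 19. The median over all 32851 RefSeq mouse windows of this kind was 7, with quartiles at 3 and 20, so the 4 printed windows lay above the median. As many CpG as in the Pcdh17 window were found in 16.9% of all windows, and as many as in the Pcdh7 window in 41.4%. Among the other members with a window, Pcdh18 had 23 CpG, Pcdh19 had 18 and Pcdh8 had 14. The letters CAGCTG, which read the same on both strands and are one form of the E-box bound by basic helix-loop-helix factors, were in none of the windows of these 7 members and in 16.3% of all windows.

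Seen as a family, the delta protocadherins reached a far lower total in TKO than in WT cells at D8, after similar totals at D4. Their summed TPM was 63.2 and 65.3 in the TKO D8 libraries, against 184 and 178 in the WT D8 libraries. At D6 the sums were 68.6 and 72.9 in TKO and 88 and 86 in WT libraries, and at D4 they were 50.7 and 56 in TKO and 52 and 60.5 in WT libraries, where the ranges overlapped. At D2 the order was the other way round, with 33.6 and 35.2 in TKO and 25 and 19.1 in WT libraries. The largest difference in TPM at D8 was that of Pcdh8, with a mean of 22.3 in TKO and 105 in WT. The make-up of the sum also differed at D8. Pcdh1 supplied 46.3% of the mean member TPM in TKO D8 and 6.99% in WT D8 cells, while Pcdh8 supplied 34.7% in TKO D8 and 58% in WT D8 cells. In stem cells Pcdh1 led in both genotypes, with 87.6% in TKO and 87.5% in WT. In TKO D8 cells the mean TPM ran in the order Pcdh1 (29.7), Pcdh8 (22.3), Pcdh18 (9.22), Pcdh19 (1.4), Pcdh7 (0.772), Pcdh9 (0.384), Pcdh10 (0.306) and Pcdh17 (0.129), with no overlap between neighbours in that order. In WT D8 cells it ran in the order Pcdh8 (105), Pcdh18 (20.6), Pcdh9 and Pcdh1 (12.7 each), Pcdh17 (10.4), Pcdh10 (8.02), Pcdh7 (6.81) and Pcdh19 (4.77). There the libraries of Pcdh9 and Pcdh1 overlapped, and so did those of Pcdh10 and Pcdh7.

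**Figure D1:**
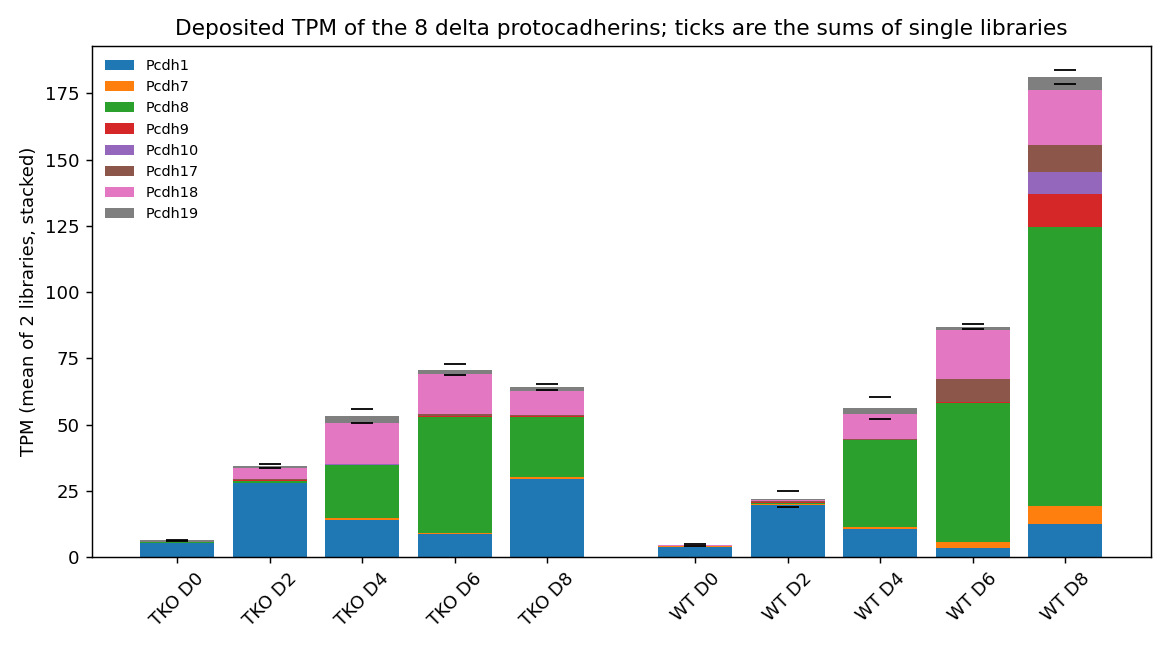
Stacked bars of the mean deposited TPM of the 8 delta protocadherins in each genotype and day, TKO groups left and WT groups right, with ticks at the sums of the 2 single libraries. The WT D8 bar, with library sums of 184 and 178, is the tallest, and the TKO D8 bar, at 63.2 and 65.3, is led by Pcdh1.

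At D8, 7 of the 8 members were lower and 1 was higher in TKO than in WT cells by the edgeR quasi-likelihood test at a Benjamini-Hochberg adjusted p under 0.05. That test called 67.5% of all genes tested in this comparison, 31.8% lower and 35.8% higher. The median log2 fold change, TKO over WT, was -2.43 over the members and 0.04 over all genes tested. In every one of the 8 both libraries of one genotype lay above both of the other. With 2 libraries per group this also happens often without a difference, and its share over all genes tested was not counted. Pcdh9 reached the level of the low-count filter, 0.323 CPM, in both libraries of only WT D6, WT D8 and TKO D8, and each other member did so in at least 6 of the 10 groups. In bulk RNA, fewer cells that express a member and less of its RNA per cell cannot be told apart.

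**Figure D2:**
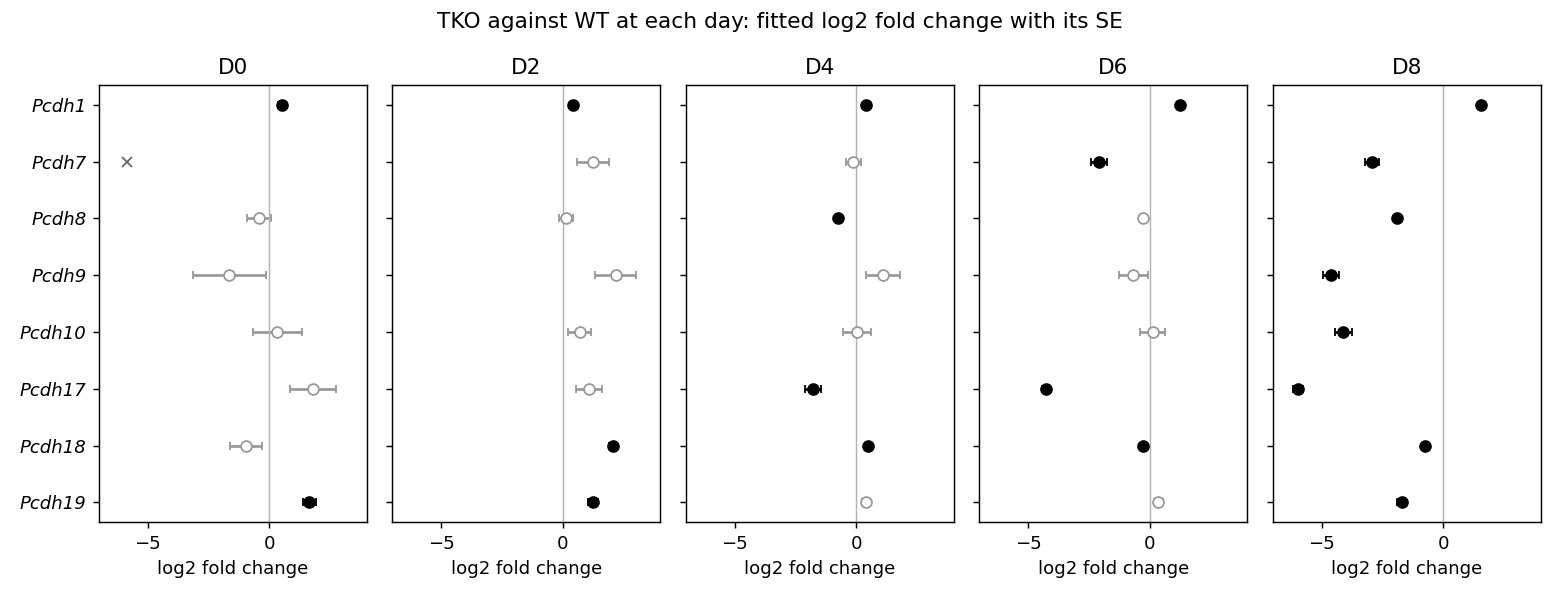
Fitted log2 fold change of each member, TKO over WT, with its SE, at each day; filled points passed the edgeR test at an adjusted p under 0.05, and the cross marks Pcdh7 at D0, where TKO had no count. At D8 Pcdh1 is the only member right of 0, and the lowest value is that of Pcdh17 at -5.95.

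Pcdh17 differed most between the genotypes. It is a delta2 member that in mouse brain marks subsets of axons and synapses and draws WAVE complex to axon contacts. Its gene lies at chr14:84443563-84539002 on the plus strand of GRCm38. In TKO cells it had 0.244 and 0.11 CPM at D0, 0.48 and 0.441 at D2, 0.4 and 0.529 at D4, 2.55 and 3.54 at D6, and 0.804 and 1.04 at D8. In WT cells it had 0.0638 and 0.0325 CPM at D0, 0.0387 and 0.349 at D2, 1.42 and 1.72 at D4, 55.8 and 59.8 at D6, and 54.7 and 60.9 at D8. The TKO libraries were below the WT libraries from D4 on, with no overlap, and the highest TKO level was at D6. The fitted log2 fold change, TKO over WT, was -1.76 (SE 0.33) at D4, with an edgeR adjusted p of 0.000658. It was -4.26 (SE 0.18, adjusted p 2.63e-12) at D6 and -5.95 (SE 0.21, adjusted p 1.3e-13) at D8, a level 61.9-fold lower in TKO. In WT cells the step to D6 was a 36.8-fold rise over D4 (log2 5.20, SE 0.19, edgeR adjusted p 1.01e-12), and D8 against D6 did not pass (adjusted p 1). In TKO cells Pcdh17 rose 6.51-fold at D6 over D4 (edgeR adjusted p 9.43e-07) and fell by 1.70 on the log2 scale at D8 against D6 (adjusted p 3.71e-05). WT D0 held 3 counts of Pcdh17, and the ratio of D8 to D0 in WT was 1195, with a 95% counting interval of 409 to 5798. At D0 itself the TKO to WT ratio was 3.69, with an interval of 0.951 to 20.9.

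Pcdh9 and Pcdh10 came up on the last day in WT cells. Pcdh9, a delta1 member linked in mice to sensory cortex structure, spans chr14:93013410-93890679 on the minus strand. It had 0.454 and 1.07 CPM in TKO D8, against 20.1 and 18 CPM in WT D8 libraries. In the other TKO libraries it ran from 0 to 0.386 CPM and in the other WT libraries from 0 to 0.485 CPM, so the 2 WT D8 libraries stood alone. It was 24.5-fold lower in TKO at D8 (log2 -4.61, SE 0.34, edgeR adjusted p 1.7e-09), and without replicate 2 of TKO D8 the log2 value was -5.37. In WT cells D8 exceeded D6 by 46.1-fold (log2 5.53, SE 0.37, edgeR adjusted p 1.41e-09), or by 4.94 on the log2 scale with length-scaled counts. In TKO cells D8 against D6 gave a log2 fold change of 1.59 (SE 0.52, edgeR adjusted p 0.0165), which was 0.12 (adjusted p 0.887) with counts from length-scaled TPM and did not pass in a fit of the groups compared alone (1.56, adjusted p 0.0596). That TKO step also lost its call without replicate 1 of TKO D6 (adjusted p 0.19) or replicate 2 of TKO D8 (adjusted p 0.33). TKO D0 held 1 count of Pcdh9, and the ratio of D8 to D0 in TKO was 44, with a 95% counting interval of 7.52 to 1772.

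Pcdh10, also called OL-protocadherin, is a delta2 member that in mice is needed for axons that grow through the ventral forebrain. Its gene lies at chr3:45378398-45435623 on the plus strand. It had 1.29 and 1.04 CPM in TKO D8, against 20.5 and 19.5 CPM in WT D8 libraries. Before D8 its levels in the genotypes were near each other. At D2 it had 1.34 and 0.922 CPM in TKO and 0.697 and 0.699 CPM in WT libraries. At D6 it had 0.724 and 0.526 CPM in TKO and 0.818 and 0.331 CPM in WT libraries, with overlapping ranges. At D8 Pcdh10 was 17.2-fold lower in TKO than in WT (log2 -4.10, SE 0.36, edgeR adjusted p 1.49e-08). The step in WT cells at D8 over D6 was 34.1-fold (log2 5.09, SE 0.39, adjusted p 7.13e-09), whereas the TKO step of 0.87 (SE 0.46) did not pass (adjusted p 0.129), though it did without the low-count filter (0.0229). Without replicate 1 of WT D6 the WT step was 5.89. Pcdh10 rose already at D2 over D0 in both genotypes, 7.8-fold in TKO (edgeR adjusted p 0.000842) and 6.02-fold in WT (adjusted p 0.00489), with D0 levels of 0.0366 and 0.244 CPM in TKO and 0.0325 and 0.191 CPM in WT. These folds moved with single D0 libraries. The log2 fold change in TKO, 2.96 with all libraries, was 4.81 without replicate 1 of TKO D0 and 2.19 without replicate 2. In WT it was 2.59 with all libraries and 4.25 without replicate 1 of WT D0, and without replicate 2 it was 1.84 and did not pass (adjusted p 0.0546).

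Pcdh7 is a delta1 member whose tail binds protein phosphatase 1 alpha, and it spans chr5:57717967-58133230 on the plus strand. In TKO cells it had no count at D0, 0.549 and 0.401 CPM at D2, 2.17 and 2.54 at D4, 1.39 and 1.05 at D6, and 2.17 and 2.88 at D8. In WT cells it had 0.351 and 0.0975 CPM at D0, 0.0387 and 0.32 at D2, 2.19 and 2.94 at D4, 6.51 and 3.97 at D6, and 20.1 and 18.9 at D8. The genotypes overlapped at D4 and parted afterwards, as WT went on rising and TKO did not exceed 2.88 CPM. TKO was 4.26-fold lower at D6 (log2 -2.09, SE 0.33, edgeR adjusted p 7.95e-05; -2.70 with length-scaled counts) and 7.7-fold lower at D8 (log2 -2.94, SE 0.29, adjusted p 1.19e-07). At D0 Pcdh7 had 0 counts in TKO and 14 in WT, as 11 and 3 in the WT libraries. With 3 counts allowed in TKO and the 14 taken as exact, it was at least 4.21-fold lower in TKO. The edgeR test called it lower (adjusted p 0.016), but not without replicate 1 of WT D0 or without replicate 1 or 2 of TKO D0. Against the D0 floor, TKO D8, with its 156 counts taken as exact, was at least 47.6-fold higher.

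**Figure D3:**
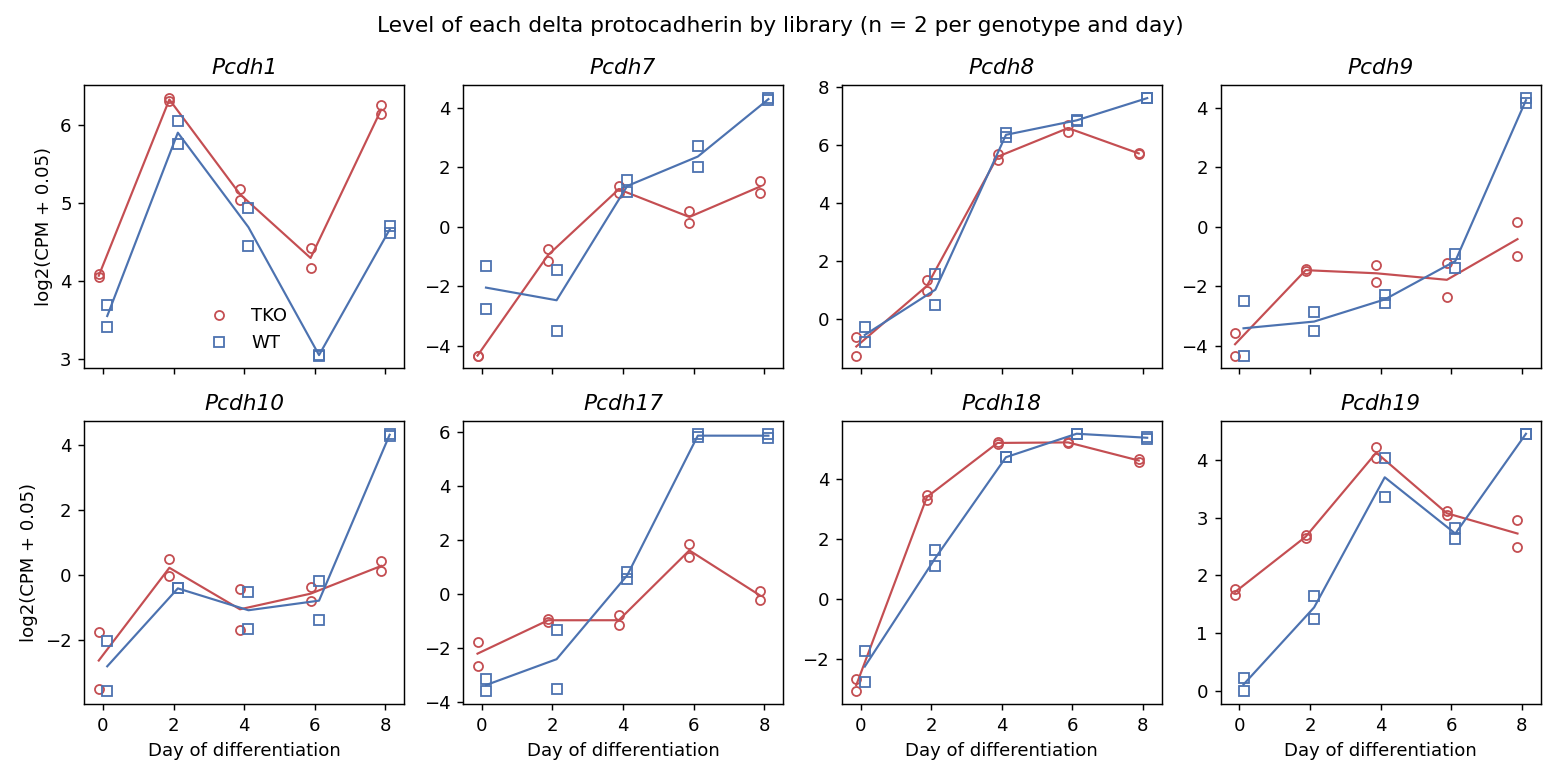
Level of each member in every library, as log2(CPM + 0.05), by day of differentiation, with TKO as circles and WT as squares and lines through the group means of these log values. Pcdh9, Pcdh10 and Pcdh17 show TKO D8 libraries at or below 1.29 CPM, below WT D8 libraries at or above 18 CPM, and Pcdh1 shows the opposite order.

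Pcdh8, Pcdh18 and Pcdh19 came up in both genotypes, differed between them on some earlier days, and were all lower in TKO at D8. Pcdh8, known as arcadlin in rat neurons and as paraxial protocadherin in frog embryos, lies at chr14:79766775-79771312 on the minus strand and was the most abundant member per length from D4 on, apart from TKO D8. It had 45.4 and 51.8 CPM at D4, 88.5 and 105 at D6, and 52.7 and 52.4 at D8 in TKO libraries. In WT libraries it had 78.3 and 86 CPM at D4, 114 and 118 at D6, and 199 and 196 at D8. All TKO libraries were below the WT libraries of the same day from D4 on. The fold was 1.69 lower in TKO at D4 (log2 -0.76, SE 0.12, edgeR adjusted p 0.000146), did not pass at D6 (log2 -0.26, SE 0.12, adjusted p 0.0911) and was 3.75-fold lower at D8 (log2 -1.91, SE 0.12, adjusted p 2.27e-10). From D6 on the genotypes moved in opposite directions. Pcdh8 fell by 0.88 on the log2 scale in TKO at D8 against D6 (edgeR adjusted p 1.07e-05), whereas it rose by 0.77 in WT (adjusted p 2.22e-05).

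Pcdh18, whose tail binds the adaptor Dab1 in mouse, lies at chr3:49743296-49757325 on the minus strand. It came up earlier in TKO than in WT cells. At D2 it had 9.98 and 11.2 CPM in TKO and 3.1 and 2.1 CPM in WT libraries, a 4.14-fold difference (log2 2.05, SE 0.14, edgeR adjusted p 6.97e-09). At D4 it was still higher in TKO, with 36 and 38 CPM against 26.6 and 26.6 CPM in WT (log2 0.47, SE 0.097, adjusted p 0.00132). By D6 the order had turned, with 38.2 and 36.7 CPM in TKO and 45.6 and 45.9 CPM in WT (log2 -0.29, SE 0.095, adjusted p 0.021). That D6 call did not hold without any 1 of the 4 D6 libraries (adjusted p 0.0528 to 0.109) or with length-scaled counts (adjusted p 0.273). At D8 it had 23.8 and 25.5 CPM in TKO and 42.8 and 40.6 CPM in WT libraries (log2 -0.76, SE 0.097, adjusted p 1.93e-06), the smallest difference among the members that day.

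Pcdh19, whose protein pairs with N-cadherin in zebrafish, lies at chrX:133582860-133688987 on the minus strand. It was higher in TKO early and lower late. It had 3.34 and 3.11 CPM in TKO and 1.12 and 0.942 CPM in WT stem cells, a 3.13-fold difference (log2 1.65, SE 0.28, edgeR adjusted p 0.000147). At D2 it had 6.21 and 6.41 CPM in TKO and 3.06 and 2.33 CPM in WT (log2 1.24, SE 0.22, adjusted p 0.000298). At D4, with 16.3 and 18.6 CPM in TKO and 10.2 and 16.4 CPM in WT, the ranges overlapped slightly and the test did not pass (adjusted p 0.0995), and at D6 it did not pass either (adjusted p 0.153). At D8 it had 5.59 and 7.69 CPM in TKO, against 21.8 and 21.9 CPM in WT libraries (log2 -1.71, SE 0.18, adjusted p 1.91e-07). Both genotypes thus had a high of Pcdh19 at D4 and a fall at D6 against D4. The fall was -1.06 on the log2 scale in TKO (SE 0.18, edgeR adjusted p 0.000107) and -1.01 in WT (SE 0.19, adjusted p 0.000163). WT cells rose to a second high at D8 (log2 1.73, SE 0.18, adjusted p 3.22e-07), whereas in TKO cells the D8 step did not pass (log2 -0.33, SE 0.19, adjusted p 0.163).

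Pcdh1 was the one member higher in TKO than in WT at D8. It is a delta1 member best known from airway epithelium, and its gene lies at chr18:38185914-38212053 on the minus strand. In TKO cells it had 16.5 and 16.9 CPM at D0, 79.4 and 81.8 at D2, 36.4 and 32.9 at D4, 21.4 and 17.9 at D6, and 76.5 and 70.8 at D8. In WT cells it had 10.6 and 12.8 CPM at D0, 66.5 and 54 at D2, 21.7 and 30.6 at D4, 8.24 and 8.17 at D6, and 26.1 and 24.4 at D8. Both genotypes peaked at D2, fell to D6 and rose again at D8, and on every day both TKO libraries lay above both WT libraries. The D8 level in TKO was near that of D2, and it was 2.92-fold higher than in WT (log2 1.55, SE 0.13, edgeR adjusted p 9.67e-09). At D6 TKO was 2.4-fold higher (log2 1.26, SE 0.15, adjusted p 4.1e-06). The smaller differences before that were 0.51 at D0 (SE 0.15, adjusted p 0.0118), 0.42 at D2 (SE 0.13, adjusted p 0.0142) and 0.41 at D4 (SE 0.13, adjusted p 0.0285) on the log2 scale. Each of these 3 calls was lost without single libraries. With length-scaled counts the D2 call (adjusted p 0.054) and the D4 call (0.164) were lost too, and the D4 call also in a fit of the groups compared alone (0.0663). At D0 it was lost without replicate 1 of WT D0 (adjusted p 0.118) or replicate 2 of TKO D0 (0.0593), and at D2 without replicate 2 of WT D2 (0.187) or replicate 2 of TKO D2 (0.0753). At D4 it was lost without replicate 1 of WT D4 (0.356), where the log2 difference was 0.18, or without replicate 1 or 2 of TKO D4 (0.182 and 0.0512).

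Before D8 fewer members differed between the genotypes. At D0, 2 members were higher (Pcdh1, Pcdh19) and 1 lower (Pcdh7) in TKO than in WT, in a comparison that called 39.3% of all genes tested, 19.4% higher and 19.9% lower. At D2, 3 were higher (Pcdh1, Pcdh18, Pcdh19) and none lower, with 35.3% of all genes called, 18.4% higher and 16.9% lower, and the fitted value was positive for all 8. Pcdh9 was near the threshold at D2 (0.309 and 0.321 CPM in TKO, 0.0387 and 0.0873 CPM in WT, log2 2.18, adjusted p 0.0518). It passed with DESeq2 (adjusted p 0.0397), without the low-count filter (0.00861), without both TKO D8 libraries (0.0359) and with protein-coding transcripts alone (log2 3.86, adjusted p 0.018), whereas with length-scaled counts its value was -0.07. At D4, 2 were higher (Pcdh1, Pcdh18) and 2 lower (Pcdh8, Pcdh17), with 28.3% of all genes called, 15.1% higher and 13.2% lower. At D6, 1 was higher (Pcdh1) and 3 lower (Pcdh7, Pcdh17, Pcdh18), with 41.3% called, 20.9% higher and 20.3% lower. The members' median log2 fold change was -0.04 at D0, 1.17 at D2, 0.22 at D4 and -0.27 at D6, against 0.00 over all genes tested on each of these days. The D2 median depends on Pcdh7, Pcdh9 and Pcdh17, which held 12, 4 and 13 counts in WT D2 and did not pass. With length-scaled counts their D2 values were 0.82, -0.07 and 0.58. Single libraries or the low-count filter decided some members that missed. Without that filter Pcdh7 at D2 (adjusted p 0.0403), Pcdh19 at D4 (0.0236) and Pcdh8 at D6 (0.00365) passed. At D2, without replicate 2 of WT D2, Pcdh7 (log2 3.51, adjusted p 0.0336) and Pcdh17 (log2 3.45, adjusted p 0.00824) passed as higher, and Pcdh9 passed without either replicate of WT D0, TKO D6 or TKO D8 (adjusted p 0.0307 to 0.045). Pcdh19 passed at D4 without replicate 2 of WT D4 (log2 0.78, adjusted p 0.00357), and Pcdh8 passed at D6 without replicate 2 of TKO D6 (log2 -0.39, adjusted p 0.0417) or either replicate of WT D2 (adjusted p 0.0267 and 0.0268).

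Over the whole course all 8 members were higher at D8 than at D0 in both genotypes. In TKO the test called 65.1% of all genes, 34.2% higher and 30.8% lower, and in WT 76.8%, 37.8% higher and 39.0% lower. At D2 against D0, 7 members rose in TKO, all but Pcdh17, where 53.6% of all genes were called (26.6% higher, 26.9% lower), and 5 rose in WT, where 54.7% were called (25.8% higher, 28.9% lower). At D4 against D2, Pcdh1 and Pcdh10 fell and 4 members rose in TKO, with 61.9% of all genes called (31.6% higher, 30.3% lower). In WT, Pcdh1 fell and 5 members rose, with 61.9% called (31.8% higher, 30.1% lower). The steps of Pcdh8 were the largest there, 22.1-fold in TKO (log2 4.46, SE 0.18, adjusted p 7.46e-13) and 40.7-fold in WT (log2 5.35, SE 0.18, adjusted p 3.62e-14). At D6 against D4, 2 rose and 3 fell in TKO, with 48.1% of all genes called (24.7% higher, 23.4% lower), and 5 rose and 2 fell in WT, with 53.4% called (27.3% higher, 26.0% lower). At D8 against D6, 3 rose and Pcdh8, Pcdh17 and Pcdh18 fell in TKO, with 50.0% of all genes called (25.5% higher, 24.5% lower). In WT 6 rose and none fell, with 57.0% called (26.6% higher, 30.4% lower), and Pcdh17 and Pcdh18 did not pass. Some of these steps rested on single libraries. In TKO, the rise of Pcdh9 at D2 was lost without replicate 2 of TKO D0 (adjusted p 0.0594), and the fall of Pcdh10 at D4 was lost without replicate 1 of TKO D2 (0.212) or of TKO D4 (0.291). In TKO the fall of Pcdh7 at D6 was lost without any 1 of the 4 libraries compared (0.0591 to 0.175) or with protein-coding transcripts alone (0.0505), and its rise at D8 without replicate 2 of TKO D6 (0.116) or of TKO D8 (0.154). In WT, the rise of Pcdh7 at D6 was lost without replicate 1 of WT D4 (0.0716) or of WT D6 (0.155). The rise of Pcdh9 at D6 in WT passed narrowly (adjusted p 0.0497), and without any 1 of the 4 libraries compared it did not pass (0.0562 to 0.245), nor without any 1 library of WT D2, WT D8, TKO D0, TKO D2 or TKO D4 (0.0524 to 0.0637), with the replicate block (0.053) or with protein-coding transcripts alone (0.133). Pcdh17 at D2 passed in TKO without any 1 library of WT D2 or TKO D6 (0.0236 to 0.0484), and in WT without replicate 1 of WT D2 (0.00439) or either replicate of TKO D6 (0.0459 and 0.0469). It also passed as higher at D2 in both genotypes with DESeq2 (0.0324 in TKO, 0.044 in WT), with length-scaled counts (0.0221 in TKO, 0.00302 in WT), without the low-count filter (0.0248 in TKO, 0.0241 in WT) and with the replicate block (0.0383 in TKO, 0.0392 in WT).

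The change over time was then compared between genotypes in the same model, as the TKO change minus the WT change on the log2 scale. For D8 against D6 this difference passed for 6 members, all with a negative value, in a comparison that called 49.9% of all genes tested, 25.5% higher and 24.4% lower. It was -4.22 for Pcdh10 (SE 0.64, edgeR adjusted p 2.83e-05), -3.94 for Pcdh9 (SE 0.74, adjusted p 0.000236), -2.06 for Pcdh19 (SE 0.26, adjusted p 4.18e-06), -1.70 for Pcdh17 (SE 0.3, adjusted p 0.000122), -1.65 for Pcdh8 (SE 0.17, adjusted p 2.98e-07) and -0.47 for Pcdh18 (SE 0.14, adjusted p 0.00803). The Pcdh18 value did not pass with length-scaled counts (-0.56, adjusted p 0.0699). The Pcdh10 value was -5.01 without replicate 1 of WT D6. The Pcdh9 value was -4.82 with length-scaled counts and -3.12 without replicate 2 of TKO D6. For D8 against D0 it passed for 5 members, with 52.3% of all genes called, 29.3% higher and 22.9% lower. It was -7.75 for Pcdh17 (SE 1, adjusted p 6.11e-06), -4.43 for Pcdh10 (SE 1.2, adjusted p 0.00424), -3.36 for Pcdh19 (SE 0.33, adjusted p 1.52e-07), -1.49 for Pcdh8 (SE 0.54, adjusted p 0.0267) and 1.03 for Pcdh1 (SE 0.2, adjusted p 0.000295). The Pcdh10 value was -6.11 without replicate 1 of WT D0 and did not pass without replicate 1 of TKO D0 (-2.58, adjusted p 0.44), and the Pcdh8 value did not pass without that library (adjusted p 0.264) or without replicate 2 of WT D0 (adjusted p 0.101). For D6 against D0 it passed for 3 members, with 30.0% of all genes called, 15.8% higher and 14.2% lower. It was -6.06 for Pcdh17 (SE 0.98, adjusted p 0.000152), -1.29 for Pcdh19 (SE 0.34, adjusted p 0.00776) and 0.75 for Pcdh1 (SE 0.22, adjusted p 0.0142). Pcdh7, which missed for D8 against D6 (-0.85, adjusted p 0.124), passed there without replicate 1 of WT D6 (-1.24, adjusted p 0.0391) or without the low-count filter (-0.84, adjusted p 0.0242), and was -0.09 with length-scaled counts. The Pcdh1 value for D6 against D0 lost its call without replicate 2 of WT D0 (adjusted p 0.0726) or replicate 1 of TKO D6 (adjusted p 0.0708). These comparisons share libraries with each other and with those at single days. The fitted values of Pcdh17 against D0 rest on 3 counts in WT D0, and without replicate 1 of TKO D0 they were -7.08 for D8 and -5.38 for D6.

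The transcripts that made up Pcdh1 and Pcdh7 also differed at D8, which is given as a description of the deposited TPM with no test. Pcdh7-201, with 2 exons and a coding sequence of 1069 codons, supplied 68.1% and 71.2% of the Pcdh7 TPM in TKO D8, against 32.4% and 35% in WT D8 libraries. Pcdh7-203, with 3 exons and 1255 codons, supplied 7.65% and 9.16% in TKO D8, against 37.5% and 38.6% in WT D8 libraries. Both transcripts begin near the same start, and the longer one reaches an end far downstream, at position 58133230 against 57729465 of chromosome 5. Pcdh7-202, another long form with 3 exons and 1247 codons, had a higher mean share in TKO D8 (11.4%) than in WT D8 (4.79%). Its libraries overlapped, at 2.8% to 20% in TKO and 0% to 9.59% in WT. Pcdh7-201 led in TKO at D4 and D6 too, with mean shares of 67.6% and 75.1%, against 38.1% and 28.5% in WT, at Pcdh7 levels of 1.05 to 2.54 CPM in TKO.

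Pcdh1-202, with 3 exons and 1038 codons, supplied 56.8% and 58.2% of the Pcdh1 TPM in TKO D8, against 28.9% and 29.5% in WT D8 libraries. Its mean share in TKO was 72.7% at D0, 57.9% at D2, 51.1% at D4 and 49% at D6, and in WT 66.3%, 58.6%, 63.1% and 50.1% on the same days. The WT D8 libraries thus had the lowest shares of this transcript. There, Pcdh1-204, annotated without a complete start, supplied 24.3% in TKO and 36% in WT on average, and Pcdh1-203, with 5 exons and 360 codons, 13.4% in TKO and 24.7% in WT. Pcdh8-201 supplied most of Pcdh8 in both genotypes at D8, with 77.1% in TKO and 79.2% in WT. For Pcdh9, a single-exon transcript without a coding sequence, Pcdh9-203, supplied 8.06% and 58.9% in TKO D8 and 35.1% and 42.2% in WT D8 libraries. With only protein-coding transcripts summed, a choice made after the data were seen, the D8 difference of Pcdh9 was -4.58. Genes on the opposite strand overlap each member except Pcdh18, and whether the counting used strand is not given in the sources used here. At most 0.193% of the 31-base words of a member, in Pcdh17, occurred in transcripts of another gene.

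**Figure D4:**
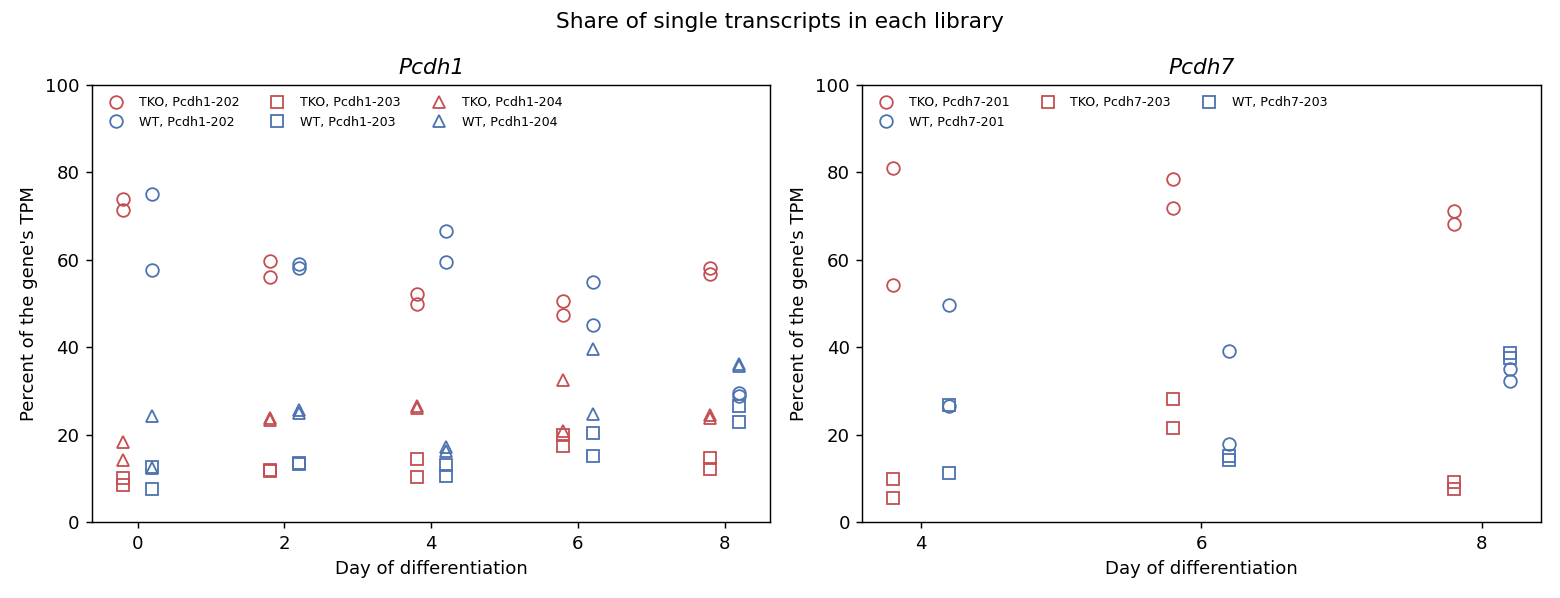
Percent of the gene's deposited TPM supplied by single transcripts of Pcdh1 at each day and of Pcdh7 from D4, 1 point per library, TKO left of WT at each day. At D8 Pcdh7-201 sits at 68.1% and 71.2% in TKO and 32.4% and 35% in WT, and Pcdh1-202 at 56.8% and 58.2% in TKO and 28.9% and 29.5% in WT.

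Markers of neurons and progenitors moved with the members at D8, where 31.8% of all genes tested were called lower and 35.8% higher. All 10 neuron markers, among them Tubb3 (314 CPM in TKO, 1286.6 CPM in WT) and Dcx (125 CPM in TKO, 718 CPM in WT), were lower in TKO, with a median log2 fold change of -1.85, and their summed level was 1018.4 and 1012.8 CPM in TKO and 3837.8 and 3867.1 CPM in WT libraries. All 10 neural progenitor markers were lower too, with a median of -1.46 and sums of 898 and 896 CPM in TKO and 2202.9 and 2264.3 CPM in WT. All 10 pluripotency markers were higher in TKO, with a median of 4.86 and sums of 1251.7 and 1185.0 CPM in TKO and 80.5 and 54.8 CPM in WT. None of these markers was at 0 in a group at D8. Their part in the member differences at D8 was not tested.

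At D6 the neuron markers stood the other way round, where 20.9% of all genes tested were called higher and 20.3% lower. Of the 10, 9 were higher and none was lower in TKO, with sums of 1268.7 and 1605.4 CPM in TKO and 882 and 788 CPM in WT, while Pcdh17 was 19.1-fold and Pcdh7 4.26-fold lower in TKO. At that day 6 of the 10 progenitor markers were lower and 1 higher, with sums of 1668.6 and 1822.7 CPM in TKO and 2237.5 and 2274.4 CPM in WT. All 10 pluripotency markers were higher, with a median log2 fold change of 3.38 and sums of 226 and 170 CPM in TKO and 29.3 and 17.8 CPM in WT. Endoderm markers were higher for 7 of 10 and lower for none, with a median of 1.79 and sums of 94.5 and 112 CPM in TKO and 52.7 and 41 CPM in WT. The part of these lists in the member differences at D6 was not tested.

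Several marker lists moved with the early differences. Over all genes tested, 19.4% were called higher and 19.9% lower in TKO at D0. These shares were 18.4% and 16.9% at D2, and 15.1% and 13.2% at D4. All 10 endoderm markers were higher in TKO at D0, with a median log2 fold change of 3.35 where those at 0 in a group are set to their bound, and 9 of the 10 at D2, with a median of 3.64. They summed to 370 and 411 CPM in TKO and 24.7 and 33.7 CPM in WT at D0, and to 336 and 447 CPM in TKO and 30.4 and 34 CPM in WT at D2. At D2 neuron markers were higher for 8 of 10 and lower for none, with a median of 0.69 and sums of 475 and 438 CPM in TKO and 291 and 298 CPM in WT. Of the 10 progenitor markers 6 were higher and 2 lower at D2, with a median of 0.94, although their sums were 478 and 457 CPM in TKO and 481 and 502 CPM in WT. Pluripotency markers at D2 were lower for 5 and higher for 1 of 10, with a median of -0.51 and sums of 2364.6 and 2076.4 CPM in TKO and 3000.6 and 3293.5 CPM in WT. At D0 the pluripotency markers were lower for 2 of 10 and higher for none, and the neuron markers higher for 2 and lower for 2. At D4, when Pcdh1 and Pcdh18 were higher and Pcdh8 and Pcdh17 lower, 6 of 10 neuron markers were higher and 1 lower, with sums of 285 and 275 CPM in TKO and 372 and 389 CPM in WT, and 6 of 10 endoderm markers were higher and none lower. The part of these lists in the member differences of D0 to D4 was not tested. Markers of other lineages were low in sum at D8, where 35.8% of all genes tested were called higher and 31.8% lower. Primitive streak and mesoderm markers summed to 16.1 and 20.6 CPM in TKO and 6.68 and 5.57 CPM in WT, with 4 higher and 1 lower of 8 tested. Endoderm markers summed to 83.7 and 138 CPM in TKO and 122 and 75.2 CPM in WT, with 4 higher and 2 lower of 10. Mesenchyme and neural crest markers summed to 60.4 and 74.2 CPM in TKO and 80.7 and 73.5 CPM in WT, with 3 higher and 4 lower of 10.

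Relatives of the family shifted at D8 in the same direction for most genes, where 31.8% of all genes tested were called lower and 35.8% higher. Of 12 other non-clustered protocadherins and large cadherins tested, 9 were lower and 3 higher in TKO, with a median log2 fold change of -1.58. Pcdh11x, a further delta1 protocadherin of the X chromosome, averaged 0.0634 CPM in TKO and 2.79 CPM in WT (log2 -5.34, SE 0.58, edgeR adjusted p 5.42e-06). Pcdh12, known from endothelium and trophoblast, was higher, at 3.28 CPM in TKO and 0.433 CPM in WT (log2 2.90, SE 0.39, adjusted p 6.27e-06). So was Fat2, with 32 counts in TKO and 1 count in WT (edgeR adjusted p 6.88e-05), too few for a fold. Of 18 cadherins of the classical kind and their relatives, 12 were lower and 6 higher, with a median of -1.16. Cdh8 averaged 0.417 CPM in TKO and 13.9 CPM in WT (log2 -5.07, SE 0.33, adjusted p 2.59e-10), and the muscle cadherin gene Cdh15 was higher, at 2.45 CPM in TKO and 0.0741 CPM in WT (log2 4.99, SE 0.6, adjusted p 8.62e-07). Cdh2, the N-cadherin partner of Pcdh19, averaged 180 CPM in TKO and 442 CPM in WT (log2 -1.29, SE 0.052, adjusted p 7.52e-13).

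Genes of the intracellular side went in both directions, in a comparison that called 35.8% of all genes tested higher and 31.8% lower. Of 8 catenins tested, 3 were higher and 3 lower in TKO at D8, with a median log2 fold change of 0.02. Ctnna2, the neural alpha-catenin, averaged 21.6 CPM in TKO and 108 CPM in WT (log2 -2.32, SE 0.13, edgeR adjusted p 5e-11), and Jup, which encodes plakoglobin, 102 CPM in TKO and 40.5 CPM in WT (log2 1.33, SE 0.093, adjusted p 7.27e-10). Of 11 WAVE complex genes 4 were higher and 4 lower, with a median of 0.02. The higher ones included the blood-cell subunit genes Nckap1l, at 14.4 CPM in TKO and 0.452 CPM in WT (log2 4.98, SE 0.24, adjusted p 6.07e-12), and Abi3, with 80 counts in TKO and 2 counts in WT (adjusted p 8.69e-05). The summed level of the complex was 877 and 879 CPM in TKO and 908 and 905 CPM in WT libraries. Of 8 genes for known tail partners 3 were higher and 3 lower, with a median of 0.04. Dab1, the Pcdh18 partner, averaged 54.4 CPM in TKO and 122 CPM in WT (log2 -1.16, SE 0.11, adjusted p 3.36e-08), and Set, whose product binds PCDH7 in human cells, 1142.6 CPM in TKO and 502 CPM in WT (log2 1.19, SE 0.073, adjusted p 1.32e-10).

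The members' courses were compared with each other over the 20 libraries, which share genotype and day. On the log2(CPM + 1) scale Pearson's r was 0.98 between Pcdh9 and Pcdh10 and 0.93 between Pcdh8 and Pcdh18, and 0.75 to 0.85 between Pcdh7 and each of the members other than Pcdh1. Outside the 2 WT D8 libraries, at 18 to 20.5 CPM, Pcdh9 and Pcdh10 did not exceed 1.34 CPM, so their r values rest largely on those 2 libraries. Between Pcdh1 and the other members it ran from -0.43 to 0.16. Among 12767 protein-coding genes outside the family, those most like each member were named, as a description. Pcdh9 was followed most closely by Lin7a (r = 0.992), a synaptic scaffold gene, and the ephrin receptor gene Epha5 (0.988), Pcdh10 by Cdh8 (0.977) and Cntnap5a (0.969), and Pcdh17 by the potassium channel gene Kcnk9 (0.986) and Tshz2 (0.976). Spearman's rho, which uses ranks alone, was lowest for the genes of Pcdh10, at 0.776 with Cdh8 and 0.678 with Cntnap5a. Pcdh7 ran with Mmp16 (0.987) and Fgf12 (0.964), Pcdh8 with Nrep (0.997) and Dpysl5 (0.994), Pcdh18 with Mfsd2a (0.989) and Galnt16 (0.987), and Pcdh19 with Nbl1 (0.936) and Slitrk5 (0.929). Pcdh1 ran with Vrtn (0.95) and Pim2 (0.947).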

How the data were processed

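Total RNA of TKO and WT cells was turned into stranded mRNA libraries with a TruSeq kit, per the labels' protocols, at D0, D2, D4, D6 and D8, with 2 biological replicates per group per the labels. Each deposited table holds 119414 transcripts of 1 library. The estimated counts per transcript and the TPM values are the authors' own, named so in the columns per the file headers, and are not scaled to depth in the case of the counts. The submitters' processing notes name Trim Galore 0.6.2, kallisto without a version, GRCm38 and mm10; their roles and the transcript set are not given in the sources used here.

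Transcripts were matched to GENCODE M21 genes by identifier, 116728 of them (116161 with the same version), and 2686 without a match, with 0.943% to 1.1% of a library's counts, were left out. The sum over the transcripts of each of 35975 genes was rounded to a whole number for the test. Over all transcripts, TKO D2 replicate 2 was the shallowest library, with 26015282 counts, and WT D2 replicate 2 the deepest, with 38074768. Only counting error enters the 95% intervals and the floor of 3 counts, and having 2 libraries per group limits precision.

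A single edgeR 4.0.16 model in R 4.3.3 held all 20 libraries (TMM scaling, filterByExpr with a count step of 10, quasi-likelihood F test, 10 residual degrees of freedom, common biological coefficient of variation 0.069). The p-values were adjusted over 18555 genes by Benjamini and Hochberg, and genes passed under 0.05. The SE is the log2 fold change divided by the square root of F. The fit was tested on simulated data with the same spread for every gene. Changes were put only in genes with more counts than most members had at D0, so that test does not cover those members at D0. Comparisons were TKO against WT at each day, each day against the one before and D8 against D0 within a genotype, and the difference of 3 of these changes between genotypes. As alternatives, scaling was changed to relative log expression, the low-count filter was dropped, replicate numbers entered as a block, length-scaled TPM replaced the counts, DESeq2 1.42.0 replaced edgeR, the model was limited to the groups compared, the threshold was set to 0.01, and every library was left out once. A group with 1 library left is taken to vary as the other groups do. A fit without both TKO D8 libraries and sums of protein-coding transcripts only were added after the data were seen.

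The members, the gene lists and the tests were chosen with earlier results of these data known. Named were the 8 members in every comparison, the genes of a list that passed and had the biggest log2 fold changes (at most 3), the 2 protein-coding genes with at least 5 CPM in a group most like each member (Pearson's r of log2(CPM + 1)), Dnmt1, Dnmt3a, Dnmt3b and Pou5f1. Tubb3, Dcx, Cdh2 and Jup fall under these lists, with Cdh2 chosen after its values were seen. Differences between identical-looking replicates were looked for: the chi-square per degree of freedom between the 2 libraries of a group ran from 2.98 to 29.5, highest in WT D0, so none was a repeat of another. The next highest was 11.3, in WT D4. The model gives WT D0 no spread of its own, so p-values of comparisons with WT D0 may be too small. Promoter windows are those of RefSeq (GRCm38.p6), in which 7 members have one used here.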

Additional observations from a re-analysis of the deposited data

Results flagged for a closer look

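The results below are listed because the change of a member over time differed between TKO and WT cells. The test was of that difference itself (TKO change minus WT change, log2, edgeR quasi-likelihood test, Benjamini-Hochberg adjusted p under 0.05, n = 2 libraries per group). It called 49.9% of all genes tested for D8 against D6, 52.3% for D8 against D0 and 30.0% for D6 against D0. For D8 against D6 the difference was -4.22 for Pcdh10, -3.94 for Pcdh9, -2.06 for Pcdh19, -1.70 for Pcdh17, -1.65 for Pcdh8 and -0.47 for Pcdh18. The Pcdh18 value did not pass with length-scaled counts (-0.56, adjusted p 0.0699). For D8 against D0 it was -7.75 for Pcdh17, -4.43 for Pcdh10, -3.36 for Pcdh19, -1.49 for Pcdh8 and 1.03 for Pcdh1. For D6 against D0 it was -6.06 for Pcdh17, -1.29 for Pcdh19 and 0.75 for Pcdh1. Some of the calls against D0 were lost without single libraries. Without replicate 1 of TKO D0 the D8 values were -2.58 for Pcdh10 and -1.10 for Pcdh8. Without replicate 2 of WT D0 the D8 value of Pcdh8 was -1.24 and the D6 value of Pcdh1 was 0.60. Without replicate 1 of TKO D6 the D6 value of Pcdh1 was 0.61. Pcdh8 moved in opposite directions at D8 against D6, with 52.7 and 52.4 CPM at D8 after 88.5 and 105 CPM at D6 in TKO libraries, and 199 and 196 CPM after 114 and 118 CPM in WT libraries. Among the values that passed, only those of Pcdh1 were positive.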

How the results depend on the processing

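All 8 calls of TKO against WT at D8 kept their direction and passed in each of the 28 alternatives that gave a value, with log2 fold changes of -6.15 to -5.78 for Pcdh17, -5.37 to -4.14 for Pcdh9, -4.35 to -3.94 for Pcdh10, -3.16 to -2.75 for Pcdh7 and 1.5 to 1.61 for Pcdh1. At an adjusted p under 0.01 the count of members at D0 was 1 in place of 3, and without the low-count filter the count at D2 was 5 in place of 3; the cause of the second was not tested. Leaving out 1 library in turn, the member counts for TKO against WT were 1 to 3 at D0, 2 to 4 at D2, 3 to 5 at D4, 3 to 5 at D6 and 8 to 8 at D8. For the steps they were 6 to 8, 5 to 6, 4 to 5 and 4 to 6 in TKO and 4 to 6, 6 to 6, 5 to 7 and 6 to 6 in WT, in the order of days, and 8 to 8 for D8 against D0 in both. For the differences of change they were 3 to 5 for D8 against D0, 6 to 7 for D8 against D6 and 2 to 3 for D6 against D0. No called value changed sign. Over all genes tested, TKO against WT at D4 called 3236 in place of 5259 at an adjusted p under 0.01 and 3355 without replicate 2 of TKO D4, and the difference of change for D6 against D0 called 3577 in place of 5574 at an adjusted p under 0.01.

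The replicates of different groups share only a number in the labels. Their deviations correlated between groups at -0.11 to 0.13 over 45 pairs of groups, 2 of them above 0.1. With the replicate number as a block the counts of members were 3, 3, 4, 4 and 8 for TKO against WT from D0 to D8. Pcdh17 at D2 against D0 passed with the block, at 1.36 in TKO (adjusted p 0.0383) and 2.05 in WT (adjusted p 0.0392), Pcdh9 at D6 against D4 in WT did not (1.58, adjusted p 0.053), and no other member call changed. Depth limits Pcdh7, Pcdh9, Pcdh10, Pcdh17 and Pcdh18 at D0, where groups held 0 to 14 counts. It also limits some later groups. Pcdh9 held 4 counts in WT D2, 9 in WT D4, 17 in TKO D2, 19 in TKO D4 and 16 in TKO D6. In WT D2 Pcdh7 held 12 counts and Pcdh17 held 13.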
